A study of Mus musculus with 90 samples.

Results

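The data described here are liver RNA sequencing profiles of calorie-restricted mice that lack the glucocorticoid receptor (GR, the product of Nr3c1) in hepatocytes, compared between ZT12 and ZT8. ZT, zeitgeber time, counts hours after lights on, so ZT8 falls late in the light phase and ZT12 is the hour of lights off. The members are the 3 libraries labelled CR, ZT12 and GRLKO and the 3 labelled CR, ZT8 and GRLKO, which are 6 of the 90 samples in the series. All animals were male C57BL/6J mice aged 20 to 21 weeks with floxed Nr3c1 alleles. GRLKO animals also carried Cre recombinase driven by the albumin promoter, which acts in hepatocytes, so the other cells of the liver keep the receptor, and WT animals carried the floxed alleles without Cre. On caloric restriction (CR) food was lowered in weekly steps until calories were 40% below free intake, and the daily meal came at ZT12. Control animals ate freely until 1 week before the end, and in that week food was there from lights off to lights on (night-restricted feeding, NRF). Libraries were made from polyA RNA of snap-frozen liver. Beside the 6 libraries of the comparison, 6 WT libraries on CR and 8 GRLKO libraries on NRF from the same hours (3 and 4 per group) were used to ask whether the change from ZT8 to ZT12 differed with genotype or diet.

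GR is a nuclear receptor that binds corticosterone, the main glucocorticoid of mice, and acts on transcription in the nucleus. In nocturnal rodents corticosterone rises toward lights off, and hepatic GR is known for driving genes of glucose production and amino acid breakdown in the fasted state. The liver also runs a molecular clock, a feedback loop in which BMAL1 and CLOCK activate their own repressors, and the same hours bring the end of the fast on CR. Insulin, glucagon, body temperature and autonomic signals may also change in these hours, and their part was not tested. The paper places its ZT12 livers at the end of the fast, so ZT12 is not read here as a fed state. The comparison asks which transcripts differ between ZT8 and ZT12 when hepatocytes have no GR.

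The libraries held 20293389, 18001171 and 16526918 counts at ZT8 and 17590672, 19230725 and 16766064 at ZT12. Totals ran from 16249746 to 20788575 in the WT libraries on CR and from 12750053 to 16066590 in the GRLKO libraries on NRF. Levels are given in CPM, counts per 1000000 counts of a library after TMM scaling, and 3 counts in a library, the floor used below which a level was taken as not detected, were 0.143 to 0.184 CPM in the 6 libraries. Floors cover counting error only. A principal component analysis of the 6 libraries put 39.9% of the variance on a component that separated the hours, with ZT8 libraries at -28.08, -23.74 and -38.04 and ZT12 libraries at 31.38, 25.91 and 32.56. On the next component, with 19.3%, ZT12 replicate 2 stood apart at 42.42, while the other 5 libraries lay between -21.17 and 4.76. ZT12 replicate 1 held skeletal muscle transcripts: the 5 muscle markers summed to 138.2 CPM there, with Acta1 at 80.2 CPM, and to at most 0.318 CPM in any of the other libraries. No muscle marker passed the filter on low counts. In bulk liver, fewer cells of a type and less RNA per cell cannot be told apart.

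Transcripts of the deleted gene were low. With the 12 CR libraries scaled together, Nr3c1 was at 23.9, 25.6 and 24.1 CPM at ZT8 and 29.9, 30.9 and 29.6 CPM at ZT12 in GRLKO livers, and at 109.5, 85.8 and 100 CPM at ZT8 and 98.8, 94.7 and 99.5 CPM at ZT12 in WT livers. Every GRLKO library lay below every WT library. Within GRLKO the 3 ZT12 libraries lay above the 3 at ZT8 (log2 change 0.30 ± 0.07, adjusted p 0.038), but the call was lost in each of the 6 fits that left out 1 library, with adjusted p up to 0.14. The 7 hepatocyte markers were present, with Alb, which encodes albumin, averaging 88976.5 CPM at ZT8 and 104566.3 CPM at ZT12. Among them Trf rose (log2 change 0.30, adjusted p 0.04) and Apoa1 fell (log2 change -0.50, adjusted p 0.011). For Trf, the call held in 2 of the 6 fits that left out 1 library, those without ZT12 replicates 1 and 2, with adjusted p up to 0.14 in the others, and for Apoa1, the call was lost without ZT8 replicates 1 and 3, with adjusted p up to 0.057. Of the markers of bile duct cells, Epcam was at 0 in all 6 libraries and 4 were tested, of which Spp1, a secreted phosphoprotein, fell: it was at 58.8, 53.0 and 70.0 CPM at ZT8 and 28.9, 28.9 and 29.4 CPM at ZT12 (log2 change -1.06 ± 0.11, adjusted p 0.0023). The 5 bile duct markers together summed to 64.8, 56.1 and 74.5 CPM at ZT8 and 31.6, 32.3 and 31.8 CPM at ZT12, nearly all of it Spp1. Among 8 Kupffer and myeloid markers, Cd5l (log2 change -0.56, adjusted p 0.022) and Csf1r (log2 change -0.53, adjusted p 0.035) fell, where 6.18% of all genes fell and 13.7% were called. For Cd5l, the call was lost without ZT8 replicates 1 and 3 and ZT12 replicate 3, with adjusted p up to 0.089. For Csf1r, the call held in 1 of the 6 fits that left out 1 library, that without ZT8 replicate 2, with adjusted p up to 0.11 in the others. The endothelial lectin Clec4g rose (log2 change 0.34, adjusted p 0.029) and the stellate marker Pdgfrb fell (log2 change -0.50, adjusted p 0.041), 1 of 6 markers in each of these lists, near the share of all genes. For Clec4g, the call held in 2 of the 6 fits that left out 1 library, those without ZT12 replicates 1 and 2, with adjusted p up to 0.1 in the others, and for Pdgfrb, the call was lost in each of the 6 fits that left out 1 library, with adjusted p up to 0.14. Summed globin and other erythrocyte transcripts were 476.0, 397.2 and 430.2 CPM at ZT8 and 812.8, 580.9 and 446.0 CPM at ZT12, with Hbb-bs the most abundant, and the lowest adjusted p among these markers was 0.095, for Alas2. The part of other cell types in the results below was not tested.

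Of 12020 genes with enough counts to test, 1650 (13.7%) were called, that is, had an adjusted p under 0.05 in the edgeR quasi-likelihood test with Benjamini-Hochberg adjustment over all of them. Of these, 907 (7.55%) were higher at ZT12, which is what rose means below, and 743 (6.18%) were lower, or fell. The ranges of the 3 and 3 libraries did not overlap for 4456 genes (37.1%), among them 1647 of the called genes. Changes were mostly moderate, with a median fold of 1.52 among genes that rose and 1.53 among those that fell, and 330 called genes changed by at least 2-fold (173 higher and 157 lower). Log2 changes are ZT12 over ZT8 from the fit, given with their SE, and their median over all genes tested was -0.01. The number of calls depended on the libraries. Without ZT8 replicates 1, 2 and 3 it was 558, 1031 and 526, and without ZT12 replicates 1, 2 and 3 it was 1079, 1605 and 768. Without ZT12 replicate 1, the library with muscle transcripts, 615 genes were higher and 464 lower. A core of 429 genes, 268 higher and 161 lower, was called in all 6 of these fits. Genes named below belong to this core unless the libraries on which their call rested are given.

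Clock genes moved in both directions between these hours. Of 21 tested genes of the core clock list 4 rose and 5 fell, against 13.7% called among all genes, with a median log2 change of -0.22, and 6 of the 9 were in the core. Of 23 tested, DESeq2 called 5 higher and 7 lower, and the fit of all 36 CR libraries 6 and 4. Cry1, a repressor of the BMAL1 and CLOCK pair, was at 7.92, 6.10 and 7.76 CPM at ZT8 and 20.2, 20.04 and 22.7 CPM at ZT12 (log2 change 1.53 ± 0.12, adjusted p 0.0016). The ZT12 libraries lay close together and well above those of ZT8. Nfil3, a repressor at D-box sequences, was at 6.83, 6.58 and 4.67 CPM at ZT8 and 30.9, 40.6 and 39.8 CPM at ZT12 (log2 change 2.61 ± 0.17, adjusted p 6.9e-04). Every ZT12 library lay far above every ZT8 library. The opposing D-box activator Dbp was at 55.2, 47.5 and 50.4 CPM at ZT8 and 19.5, 22.3 and 15.2 CPM at ZT12 (log2 change -1.42 ± 0.14, adjusted p 0.0022), with all ZT12 libraries low. Nr1d1, which encodes the heme receptor and repressor REV-ERBalpha, was at 84.2, 83.9 and 117 CPM at ZT8 and 33.3, 39.9 and 39.3 CPM at ZT12 (log2 change -1.34 ± 0.15, adjusted p 0.0028). ZT8 replicate 3 was the highest library, and the groups did not overlap. Ciart, a circadian repressor, was at 32.8, 26.6 and 33.6 CPM at ZT8 and 8.38, 7.97 and 8.76 CPM at ZT12 (log2 change -1.89 ± 0.11, adjusted p 6.0e-04), and the 3 ZT12 libraries were nearly level. Bhlhe41, also a repressor of clock targets, was at 5.30, 6.10 and 10.5 CPM at ZT8 and 0.867, 1.52 and 0.858 CPM at ZT12 (log2 change -2.74 ± 0.35, adjusted p 0.0047). ZT8 replicate 3 was the highest library and all ZT12 libraries were low.

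Further clock genes changed less or less securely. Per3 was at 149, 119 and 122 CPM at ZT8 and 75.8, 87.5 and 60.9 CPM at ZT12 (log2 change -0.80 ± 0.14, adjusted p 0.013), every ZT12 library below every ZT8 library, and the call was lost without ZT8 replicate 1, with adjusted p up to 0.056. Csnk1d, a kinase of the PER proteins, had a log2 change of 0.27 (adjusted p 0.041), and the call was lost in each of the 6 fits that left out 1 library, with adjusted p up to 0.15. Per1, the member of the Period family that responds fastest to hormones, was at 58.4, 43.5 and 59.0 CPM at ZT8 and 39.5, 39.0 and 40.3 CPM at ZT12. All ZT12 libraries lay below all ZT8 libraries, but the adjusted p was 0.053, and of the fits that left out 1 library the one without ZT8 replicate 2 passed. Per2 was at 76.6, 59.96 and 74.0 CPM at ZT8 and 66.7, 87.1 and 76.5 CPM at ZT12, with overlapping groups (adjusted p 0.53). Arntl, the gene of BMAL1, was low, at 0, 0.531 and 0 CPM at ZT8 and 0.462, 1.35 and 3.68 CPM at ZT12, and was not tested. Levels over the 6 sampled hours of GRLKO livers on CR are given with all 36 CR libraries, WT included, scaled together. The mean of Cry1 went from 7.23 CPM at ZT8 through 20.96 at ZT12 to 44.2 at ZT16. That of Nr1d1 went from 198 at ZT4 through 94.6 and 37.5 to 1.799 at ZT16. Mean Dbp was 50.8 CPM at ZT8, the highest of its 6 hourly means, and 0.637 at ZT16.

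**Figure D1:**
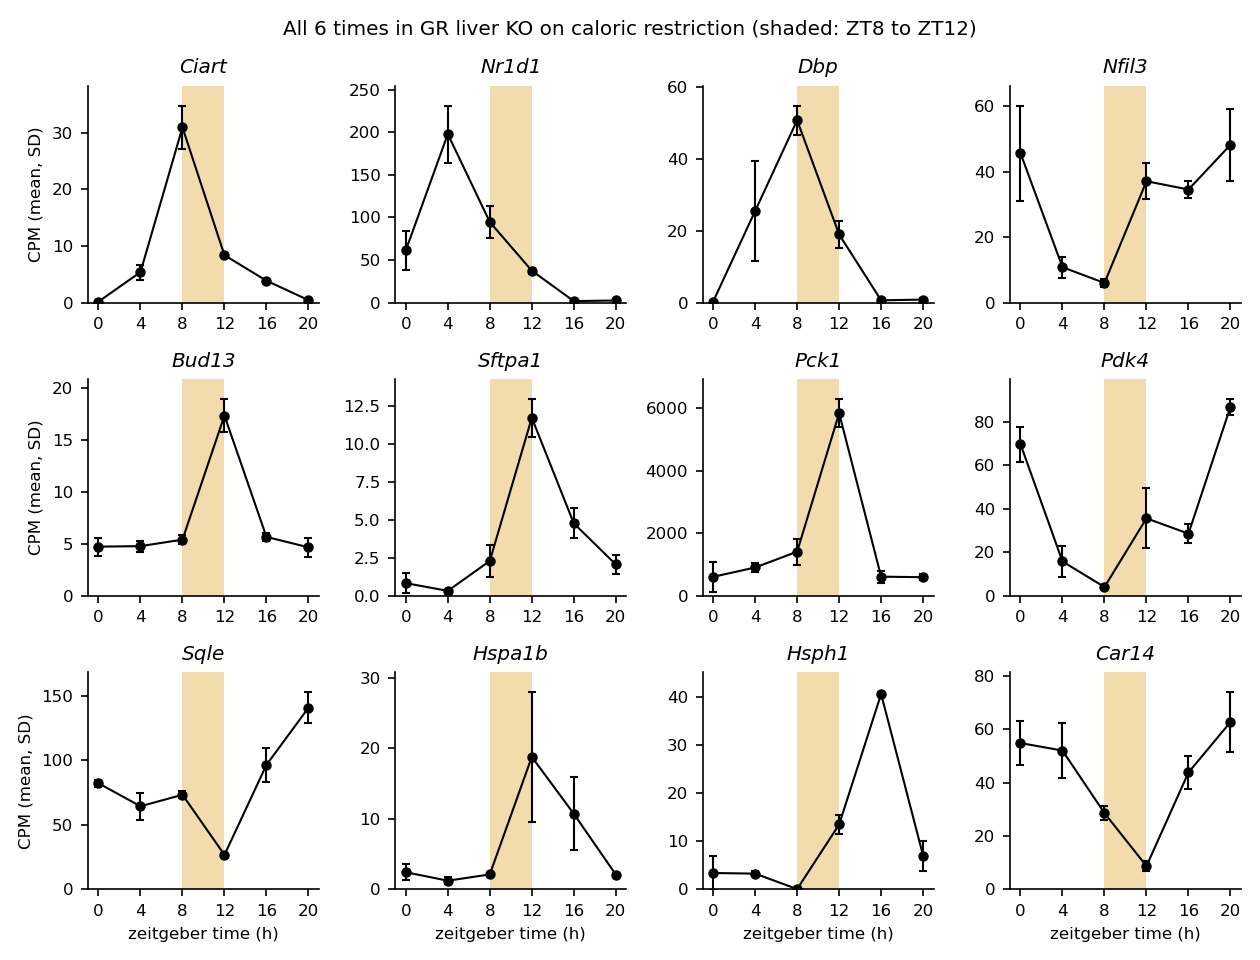
Mean level in CPM (points, error bars are SD, n = 3) of 12 genes at the 6 sampled hours in GRLKO livers on CR, with the span from ZT8 to ZT12 shaded. Nfil3 rises across the shaded span from 6 to 37.1 CPM, whereas Nr1d1 falls from 94.6 to 37.5 CPM.

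Some textbook targets of GR changed in these livers. Of 20 tested genes of that list 9 rose and 1 fell (50%, against 13.7% called among all genes), with a median log2 change of 0.33, but only 3 of the 10 were in the core, and the count was 4, 7 and 4 without ZT8 replicates 1, 2 and 3, and 6, 7 and 4 without ZT12 replicates 1, 2 and 3. Tat, tyrosine aminotransferase, was at 1196, 859.9 and 1071 CPM at ZT8 and 2393, 3316 and 3066 CPM at ZT12 (log2 change 1.49 ± 0.16, adjusted p 0.0025), every ZT12 library above every ZT8 library. Tsc22d3, which encodes the glucocorticoid-induced leucine zipper GILZ, was at 31.4, 27.2 and 30.7 CPM at ZT8 and 59.2, 74.1 and 66.2 CPM at ZT12 (log2 change 1.16 ± 0.11, adjusted p 0.0021). The groups were far apart. Zbtb16, a zinc finger repressor, was at 2.82, 3.24 and 2.33 CPM at ZT8 and 11.7, 7.52 and 9.68 CPM at ZT12 (log2 change 1.78 ± 0.21, adjusted p 0.0035), with ZT12 replicate 1 the highest library. Dusp1, a phosphatase of MAP kinases, was at 5.54, 3.02 and 6.53 CPM at ZT8 and 17.3, 12.9 and 28.5 CPM at ZT12 (log2 change 1.96 ± 0.36, adjusted p 0.014). The ZT12 libraries were spread, ZT12 replicate 3 being the highest, and the call was lost without ZT8 replicate 1, with adjusted p up to 0.056. Klf9, a Kruppel-like repressor, was the list's member that fell: it was at 85.6, 101 and 103 CPM at ZT8 and 74.3, 58.7 and 69.3 CPM at ZT12 (log2 change -0.52 ± 0.11, adjusted p 0.024), and the call was lost without ZT8 replicates 2 and 3 and ZT12 replicate 3, with adjusted p up to 0.091. Errfi1 (log2 change 0.75, adjusted p 0.044), Hsd11b1 (log2 change 0.34, adjusted p 0.023), Pik3r1 (log2 change 0.43, adjusted p 0.016) and Cdkn1a (log2 change 1.03, adjusted p 0.034) also passed the test. For Errfi1 and for Cdkn1a the call was lost in each of the 6 fits that left out 1 library, with adjusted p up to 0.1 and 0.12. For Hsd11b1, the call held in 1 of the 6 fits that left out 1 library, that without ZT12 replicate 2, with adjusted p up to 0.11 in the others. For Pik3r1, the call was lost without ZT8 replicates 1 and 3 and ZT12 replicate 3, with adjusted p up to 0.068. Fkbp5, a chaperone partner of GR, had a log2 change of 0.73 that did not pass (adjusted p 0.079).

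**Figure D2:**
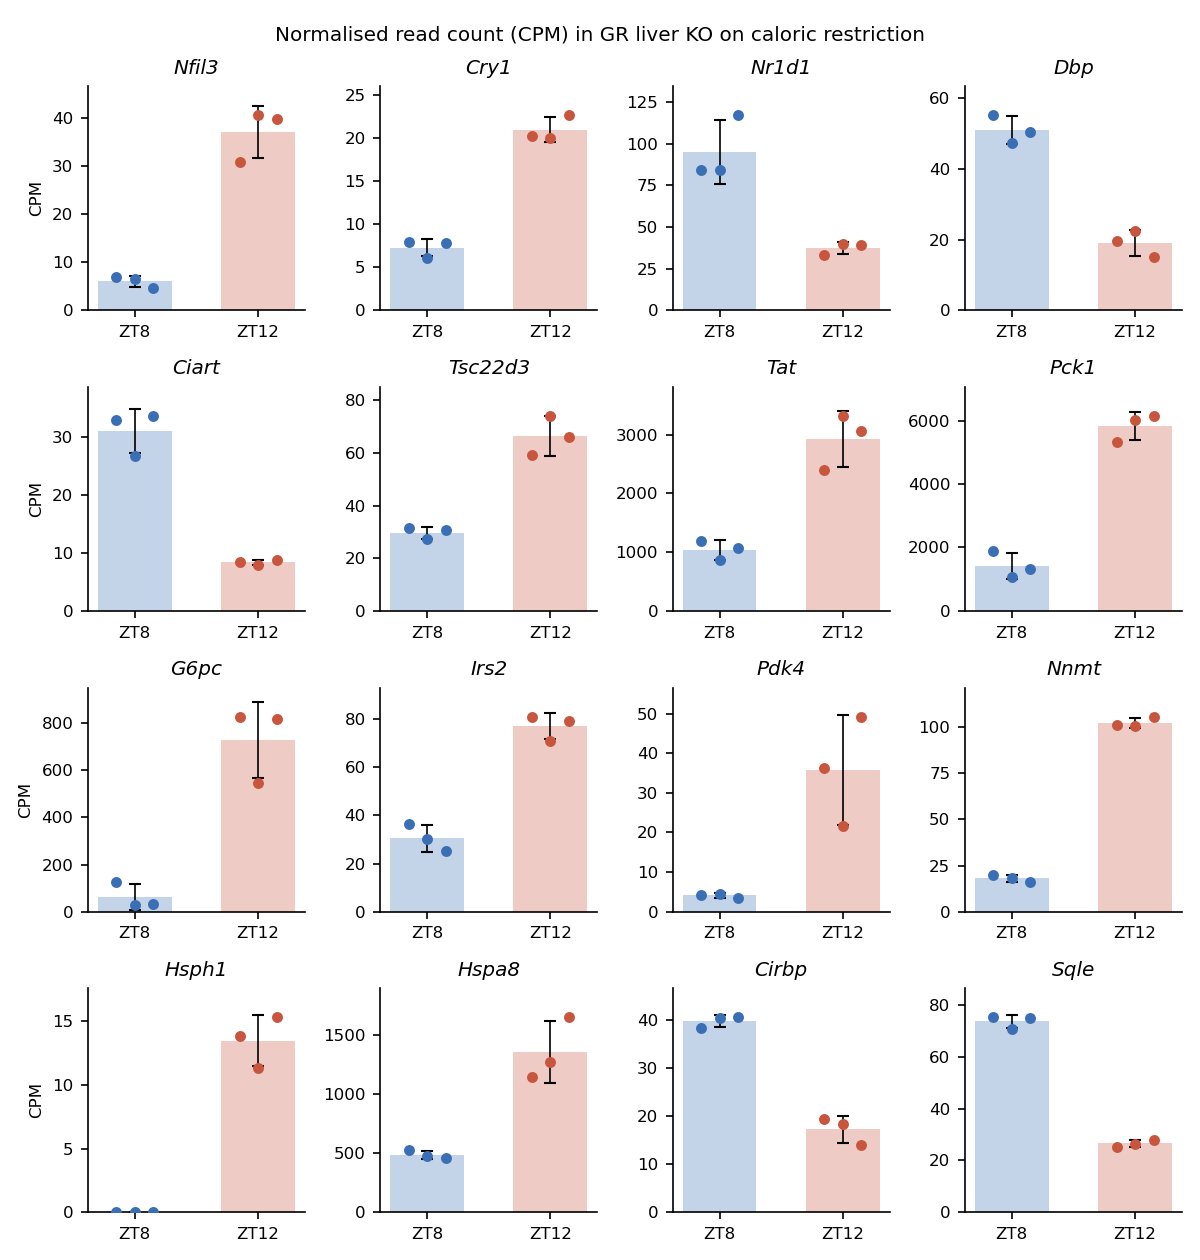
Level in CPM of 16 genes in each GRLKO library on CR at ZT8 and ZT12 (points are libraries, bars are means, error bars are SD, n = 3). Pck1 libraries lie at 1874, 1064 and 1307 CPM at ZT8 and at 5325, 6033 and 6144 CPM at ZT12.

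Some transcripts for glucose output rose. Of 15 tested gluconeogenesis genes 6 rose, against 7.55% higher among all genes, and 9 did not pass, with a median log2 change of 0.27 (0.14 without ZT12 replicate 2), and the number called was 5, 4 and 3 without ZT8 replicates 1, 2 and 3, and 4, 6 and 5 without ZT12 replicates 1, 2 and 3. In the core were 3 of the 6. Pck1, the cytosolic enzyme that feeds gluconeogenesis from oxaloacetate, was at 1874, 1064 and 1307 CPM at ZT8 and 5325, 6033 and 6144 CPM at ZT12 (log2 change 2.04 ± 0.20, adjusted p 0.0021). ZT8 replicate 1 was the highest of its group, and all ZT12 libraries were far above it. G6pc, the phosphatase that releases free glucose, was at 125, 27.7 and 34.6 CPM at ZT8 and 828, 545 and 819 CPM at ZT12 (log2 change 3.55 ± 0.57, adjusted p 0.0096). ZT8 replicate 1 was again the highest at ZT8, and without it the log2 change was 4.56. Ppargc1a, the coactivator PGC-1alpha, was at 18.4, 18.8 and 18.7 CPM at ZT8 and 37.7, 27.8 and 31.2 CPM at ZT12 (log2 change 0.79 ± 0.12, adjusted p 0.0077), all ZT12 libraries above those of ZT8. Fbp1, fructose bisphosphatase, had a log2 change of 0.57 ± 0.09 (adjusted p 0.0091), and the call was lost without ZT8 replicate 3, with adjusted p up to 0.052. Sik1, a kinase that restrains the coactivators of CREB, rose as well (log2 change 1.22, adjusted p 0.029), and the call held in 2 of the 6 fits that left out 1 library, those without ZT8 replicate 1 and ZT12 replicate 2, with adjusted p up to 0.1 in the others. Among 21 tested genes of glycolysis and glycogen 3 were called (14.3%, against 13.7% among all genes), which were 1, 3 and 2 without ZT8 replicates 1, 2 and 3, and 3, 4 and 2 without ZT12 replicates 1, 2 and 3, and the median log2 change was -0.02 (-0.12 to 0.00 without 1 library). Pdk4, the kinase that shuts pyruvate out of oxidation, was at 4.30, 4.46 and 3.50 CPM at ZT8 and 36.3, 21.6 and 49.2 CPM at ZT12 (log2 change 3.12 ± 0.30, adjusted p 0.0021), the lowest ZT12 library being replicate 2. Ppp1r3b, which targets a phosphatase to glycogen, rose (log2 change 1.21, adjusted p 0.0096), and the call was lost without ZT8 replicate 1, with adjusted p up to 0.05. Pfkfb1, which sets the level of the glycolytic activator fructose bisphosphate, was at 20, 20.7 and 21.4 CPM at ZT8 and 14.4, 16.3 and 15.6 CPM at ZT12 (log2 change -0.42, adjusted p 0.018). Its groups did not overlap, and the call held in 1 of the 6 fits that left out 1 library, that without ZT12 replicate 2, with adjusted p up to 0.087 in the others.

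Some genes of insulin signaling and of FoxO transcription factors, which insulin keeps out of the nucleus, changed in the same hours. Of 35 tested members 6 rose and 1 fell (20%, against 13.7% called among all genes), with a median log2 change of 0.13 (0.21 without ZT12 replicate 2) and 5 of the 7 in the core. The number called was 5, 7 and 5 without ZT8 replicates 1, 2 and 3, and 7, 9 and 6 without ZT12 replicates 1, 2 and 3. Irs2, the insulin receptor substrate that is most responsive to fasting in liver, was at 36.3, 30.4 and 25.1 CPM at ZT8 and 81.0, 71.1 and 79.3 CPM at ZT12 (log2 change 1.33 ± 0.13, adjusted p 0.0022). Every ZT12 library lay well above those of ZT8. Irs1 was at 24.01, 20.2 and 19.2 CPM at ZT8 and 38.7, 54.6 and 60.8 CPM at ZT12 (log2 change 1.28 ± 0.17, adjusted p 0.0054), with ZT12 replicate 1 the lowest of its group and still above all ZT8 libraries. Igfbp1, a secreted binding protein of insulin-like growth factors and a classical FoxO target, was at 8.35, 4.72 and 7.70 CPM at ZT8 and 39.9, 20.9 and 24.6 CPM at ZT12 (log2 change 2.04 ± 0.29, adjusted p 0.0064). ZT12 replicate 1 was the highest library. Ccng2, a cyclin that FoxO proteins activate, was at 10.9, 9.50 and 10.09 CPM at ZT8 and 19.1, 17.12 and 21.5 CPM at ZT12 (log2 change 0.92 ± 0.11, adjusted p 0.0038). The groups did not overlap. Foxo1 itself rose (log2 change 0.65, adjusted p 0.011), and the call was lost without ZT8 replicates 1 and 3, with adjusted p up to 0.052. Gadd45a, a growth arrest gene, went the other way: it was at 8.45, 7.38 and 6.82 CPM at ZT8 and 2.77, 3.14 and 2.82 CPM at ZT12 (log2 change -1.37 ± 0.16, adjusted p 0.0031), and all ZT12 libraries were low. In the growth hormone axis Egfr rose, 1 of 17 tested (log2 change 0.91, adjusted p 0.016), and the call was lost without ZT8 replicates 1 and 3, with adjusted p up to 0.07. Btg1, an antiproliferative gene from the list on cell cycle and growth arrest, was at 37.9, 39.5 and 33.1 CPM at ZT8 and 72.1, 79.0 and 92.3 CPM at ZT12 (log2 change 1.14 ± 0.11, adjusted p 0.0022), high in all ZT12 libraries. That list had 3 genes that rose and 3 that fell among 28 tested (21.4%), and the number called was 2, 3 and 2 without ZT8 replicates 1, 2 and 3, and 2, 4 and 3 without ZT12 replicates 1, 2 and 3.

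Some genes of the list on fat oxidation and ketogenesis rose. Of its 30 tested genes 7 rose, against 7.55% higher among all genes, and 23 did not pass, with a median log2 change of 0.21. Only 3 of the 7, Acot2, Acot4 and Angptl4, were in the core. The number called was 3, 4 and 3 without ZT8 replicates 1, 2 and 3, and 8, 8 and 4 without ZT12 replicates 1, 2 and 3. Acot4, a peroxisomal thioesterase, was at 351, 282 and 267 CPM at ZT8 and 687, 852 and 790.3 CPM at ZT12 (log2 change 1.37 ± 0.13, adjusted p 0.0021), and Acot2, its mitochondrial relative, at 7.83, 6.05 and 7.29 CPM at ZT8 and 13.2, 19.1 and 24.01 CPM at ZT12 (log2 change 1.41 ± 0.22, adjusted p 0.0088). In both genes every ZT12 library exceeded every ZT8 library, but the Acot genes are close copies of each other, so the split of counts between them is uncertain. Angptl4, a secreted inhibitor of lipoprotein lipase, was at 37.4, 29.5 and 32.7 CPM at ZT8 and 72.3, 68.1 and 88.2 CPM at ZT12 (log2 change 1.20 ± 0.13, adjusted p 0.0024). The groups were well apart. Cpt1a, the gate for fatty acids into mitochondria, rose (log2 change 0.49, adjusted p 0.015), and the call was lost without ZT8 replicates 1 and 3, with adjusted p up to 0.072. On the list of lipid droplet genes, 4 of 17 tested rose and 3 fell (41.2%, against 13.7% called among all genes), with a median log2 change of 0.08 (-0.00 to 0.15 without 1 library) and counts of 3, 5 and 3 without ZT8 replicates 1, 2 and 3, and 4, 7 and 4 without ZT12 replicates 1, 2 and 3. G0s2, an inhibitor of the lipase ATGL, was at 25.4, 23.1 and 24.1 CPM at ZT8 and 49.0, 71.3 and 74.7 CPM at ZT12 (log2 change 1.42 ± 0.16, adjusted p 0.0029), ZT12 replicate 1 being the lowest of its group. The coat protein Plin3 was at 49.8, 54.3 and 55.6 CPM at ZT8 and 28.6, 31.6 and 31.2 CPM at ZT12 (log2 change -0.81 ± 0.08, adjusted p 0.0022). Neither pair of groups overlapped. Fitm2, which helps droplets form, also rose (log2 change 0.61, adjusted p 0.0031).

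Fatty acid synthesis genes did not move as a block. In the lipid synthesis list 2 of 23 tested genes rose and 3 fell (21.7%, against 13.7% called among all genes), with a median log2 change of 0.04 (-0.06 to 0.08 without 1 library). The number called was 5, 5 and 3 without ZT8 replicates 1, 2 and 3, and 4, 5 and 6 without ZT12 replicates 1, 2 and 3. Acss2, which makes acetyl-CoA from acetate, was at 461, 377 and 380.1 CPM at ZT8 and 177, 219 and 186 CPM at ZT12 (log2 change -1.06 ± 0.12, adjusted p 0.0026). All ZT12 libraries were low. Srebf1, the gene of the lipogenic factor SREBP-1, was at 503, 337 and 460.3 CPM at ZT8 and 235, 254 and 211 CPM at ZT12 (log2 change -0.89 ± 0.15, adjusted p 0.011). The groups did not overlap, and the call was lost without ZT8 replicate 3, with adjusted p up to 0.052. Acacb, an acetyl-CoA carboxylase, fell (log2 change -0.54, adjusted p 0.044), and the call held in 1 of the 6 fits that left out 1 library, that without ZT12 replicate 3, with adjusted p up to 0.14 in the others. The desaturase Fads2 was at 703, 694 and 623 CPM at ZT8 and 954, 1244 and 1132 CPM at ZT12 (log2 change 0.72 ± 0.11, adjusted p 0.0083), and the acyltransferase Agpat2 at 67.8, 68.0 and 80.8 CPM at ZT8 and 103, 129.9 and 119.6 CPM at ZT12 (log2 change 0.70 ± 0.11, adjusted p 0.0091). For both genes all ZT12 libraries were the higher ones.

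The broadest fall among the lists was in that on cholesterol synthesis and uptake. Of its 25 tested genes 17 fell, against 6.18% lower among all genes, with a median log2 change of -0.60, and 12 of the 17 were in the core. The number that fell stayed between 12 and 19 in the fits that left out 1 library. Sqle, squalene epoxidase, was at 75.0, 70.6 and 74.9 CPM at ZT8 and 25.3, 26.5 and 27.9 CPM at ZT12 (log2 change -1.47 ± 0.07, adjusted p 2.9e-04). Libraries within each hour were nearly level. Mvd, which completes the mevalonate branch, was at 17.5, 16.2 and 16.3 CPM at ZT8 and 4.22, 6.68 and 6.07 CPM at ZT12 (log2 change -1.56 ± 0.17, adjusted p 0.0026). All ZT12 libraries were far below those of ZT8. Hmgcs1 was at 263, 304 and 282 CPM at ZT8 and 130.4, 147 and 168 CPM at ZT12 (log2 change -0.93, adjusted p 0.0031), and Idi1, the isomerase of the isoprenoid units, at 275, 280.2 and 235 CPM at ZT8 and 118, 120.4 and 140.4 CPM at ZT12 (log2 change -1.06, adjusted p 0.0021). In both genes the groups were clearly apart. Among later steps the log2 change was -0.79 for Fdps, -0.50 for Fdft1, -0.65 for Lss, -0.57 for Cyp51, -1.03 for Msmo1 and -0.95 for Nsdhl, with adjusted p from 9.9e-04 to 0.013. Sc5d also fell (log2 change -0.48, adjusted p 0.0091), and the call was lost without ZT8 replicate 1, with adjusted p up to 0.051. The carrier Stard4 fell (log2 change -0.79, adjusted p 0.0051), as did Srebf2, the gene of the pathway's master factor SREBP-2 (log2 change -0.66, adjusted p 0.0096), and for Srebf2 the call was lost without ZT8 replicate 1, with adjusted p up to 0.051.

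Of 23 tested bile acid genes 4 rose and 4 fell (34.8%, against 13.7% called among all genes), with a median log2 change of 0.04 (-0.04 to 0.06 without 1 library), and the number called was 3, 6 and 3 without ZT8 replicates 1, 2 and 3, and 4, 5 and 6 without ZT12 replicates 1, 2 and 3. Acox2, the peroxisomal oxidase that shortens bile acid side chains, was at 121, 112 and 131 CPM at ZT8 and 46.6, 54.5 and 49.6 CPM at ZT12 (log2 change -1.27 ± 0.09, adjusted p 9.0e-04). All ZT12 libraries were less than the lowest ZT8 library by a wide margin. Hsd3b7, an early enzyme of the pathway, was at 207, 208 and 290.4 CPM at ZT8 and 98.7, 126 and 122 CPM at ZT12 (log2 change -1.03 ± 0.16, adjusted p 0.0081), with ZT8 replicate 3 the highest. Abcb4, the phospholipid exporter into bile, was at 199, 210.2 and 202 CPM at ZT8 and 279, 283 and 338 CPM at ZT12 (log2 change 0.56 ± 0.09, adjusted p 0.0096), every ZT12 library above every ZT8 library. Cyp8b1, which makes cholic acid, passed the test (log2 change 0.57, adjusted p 0.044), and the call held in 1 of the 6 fits that left out 1 library, that without ZT8 replicate 2, with adjusted p up to 0.12 in the others. Among 46 tested genes of drug metabolism 7 rose and 1 fell (17.4%), with a median log2 change of 0.16 and counts of 5, 7 and 3 without ZT8 replicates 1, 2 and 3, and 9, 12 and 10 without ZT12 replicates 1, 2 and 3. The monooxygenase Fmo5 was at 652, 564 and 565 CPM at ZT8 and 945, 867 and 848 CPM at ZT12 (log2 change 0.58 ± 0.09, adjusted p 0.0082). The groups did not overlap. Ces1d, a carboxylesterase, rose (log2 change 0.70, adjusted p 0.0096), and the call was lost without ZT8 replicate 1, with adjusted p up to 0.051.

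Part of the heat shock list rose. Of 32 tested members of the list on heat shock and temperature 13 rose, against 7.55% higher among all genes, 1 fell and 18 did not pass. The median log2 change was 0.35, also with Hsph1 set to its lower bound. The number called was 8, 10 and 8 without ZT8 replicates 1, 2 and 3, and 14, 11 and 10 without ZT12 replicates 1, 2 and 3, and 8 of the 14 were in the core. Hsph1, a large chaperone of the HSP110 family, was at 0 counts in all ZT8 libraries and at 13.8, 11.3 and 15.2 CPM at ZT12, at least 84.6-fold higher when ZT8 is set to the floor of 3 counts per library, on average 0.159 CPM at ZT8 (adjusted p 6.5e-04). Among the 36 libraries on CR it was at 0 in 5, with up to 1020 counts in the others, and how the estimated counts were divided among its transcripts was not tested. Hspa8, the constitutive HSC70 chaperone, was at 525, 475 and 456 CPM at ZT8 and 1144, 1270.2 and 1644 CPM at ZT12 (log2 change 1.48 ± 0.14, adjusted p 0.0021), and ZT12 replicate 3 was the highest library. Hsp90aa1, the inducible HSP90, was at 53.9, 59.5 and 60.2 CPM at ZT8 and 105, 109.8 and 146 CPM at ZT12 (log2 change 1.06 ± 0.13, adjusted p 0.0042). Again ZT12 replicate 3 was the highest, and the groups did not overlap. Hspa1b, an inducible HSP70, was at 2.05, 2.23 and 1.98 CPM at ZT8 and 8.26, 22.7 and 25.3 CPM at ZT12 (log2 change 3.16 ± 0.42, adjusted p 0.0049). All ZT12 libraries were above ZT8, replicate 1 least so, and the gene has a near-identical neighbour, Hspa1a, so the division of counts between them is uncertain. The cochaperones Dnajb1 (log2 change 0.80, adjusted p 0.0081) and Dnajb4 (log2 change 0.82, adjusted p 0.0038) and the chaperonin subunit Cct5 (log2 change 0.42, adjusted p 0.007) rose too. Hspb1, a small heat shock protein, rose (log2 change 1.58, adjusted p 0.019), and the call was lost without ZT8 replicates 1, 2 and 3, with adjusted p up to 0.078. Cirbp, an RNA-binding protein that cold induces, was the member that fell: it was at 38.4, 40.4 and 40.5 CPM at ZT8 and 19.4, 18.4 and 14.03 CPM at ZT12 (log2 change -1.20 ± 0.12, adjusted p 0.0023), and all ZT12 libraries were low.

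In the neighbouring protein stress lists the share called was near that of all genes or somewhat above it. Of 26 tested genes of the unfolded protein response 2 rose and 1 fell (11.5%, against 13.7% called among all genes), and the number called was 1, 2 and 1 without ZT8 replicates 1, 2 and 3, and 1, 5 and 1 without ZT12 replicates 1, 2 and 3. Xbp1, a transcription factor of that response, was at 168, 222 and 201 CPM at ZT8 and 126, 119 and 109.7 CPM at ZT12 (log2 change -0.74 ± 0.11, adjusted p 0.008), with all ZT12 libraries below ZT8. Ern1, the kinase IRE1 that splices Xbp1, passed the test (log2 change 0.67, adjusted p 0.025), as did the chaperone Dnajc3 (log2 change 0.37, adjusted p 0.036). For Ern1, the call held in 1 of the 6 fits that left out 1 library, that without ZT12 replicate 2, with adjusted p up to 0.097 in the others. For Dnajc3, the call held in 2 of the 6 fits that left out 1 library, those without ZT8 replicate 2 and ZT12 replicate 2, with adjusted p up to 0.13 in the others. In the list on amino acid stress 3 of 22 tested genes rose and 2 fell (22.7%), with a median log2 change of 0.09 (0.06 to 0.20 without 1 library), and the number called was between 4 and 5 in the fits that left out 1 library. Sesn2, a leucine sensor, was at 7.73, 5.36 and 5.83 CPM at ZT8 and 14.8, 18.8 and 16.1 CPM at ZT12 (log2 change 1.39 ± 0.17, adjusted p 0.0035). The pseudokinase Trib3 was at 15.3, 14.4 and 19.1 CPM at ZT8 and 5.26, 6.57 and 6.25 CPM at ZT12 (log2 change -1.43 ± 0.15, adjusted p 0.0024). Sesn2 was high and Trib3 low in every ZT12 library. Asns, asparagine synthetase, was at 0.239, 0.318 and 0.175 CPM at ZT8 and 14.5, 40.1 and 8.76 CPM at ZT12 (log2 change 6.39 ± 0.77, adjusted p 0.0035). ZT12 replicate 2 was far above the others, and without it the log2 change was 5.53. Cebpb, shared with the acute phase list, was at 10.2, 11.3 and 8.92 CPM at ZT8 and 16.6, 15.8 and 17.15 CPM at ZT12 (log2 change 0.70, adjusted p 0.0091), and Stbd1, a glycogen-binding protein, fell (log2 change -0.54, adjusted p 0.029). For Stbd1, the call held in 1 of the 6 fits that left out 1 library, that without ZT8 replicate 2, with adjusted p up to 0.11 in the others. Of 33 proteasome genes 1 rose and 4 fell (15.2%), with counts of 1, 2 and 1 without ZT8 replicates 1, 2 and 3, and 1, 3 and 2 without ZT12 replicates 1, 2 and 3. The gene that rose is Nfe2l1, the factor that replenishes proteasome subunits, at 96.1, 96.0 and 88.8 CPM at ZT8 and 144, 176 and 176 CPM at ZT12 (log2 change 0.82 ± 0.10, adjusted p 0.0032), all ZT12 libraries high. The subunits Psmd14, Adrm1, Psmd1 and Psmd3 had log2 changes of -0.47, -0.38, -0.35 and -0.33. Their calls held in 2, 0, 1 and 1 of the 6 fits that left out 1 library, for Psmd14 those without ZT8 replicate 2 and ZT12 replicate 2, for Psmd1 that without ZT12 replicate 3 and for Psmd3 that without ZT12 replicate 2, with adjusted p up to 0.14 in the others.

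Genes of NAD metabolism and sirtuins included 5 that rose and 2 that fell among 16 tested (43.8%, against 13.7% called among all genes), with a median log2 change of 0.20 (0.10 without ZT8 replicate 2 and 0.13 without ZT12 replicate 2) and counts of 4, 7 and 3 without ZT8 replicates 1, 2 and 3, and 6, 7 and 6 without ZT12 replicates 1, 2 and 3. Nnmt, which methylates nicotinamide, was at 19.8, 18.2 and 15.98 CPM at ZT8 and 101, 100.5 and 106 CPM at ZT12 (log2 change 2.51 ± 0.09, adjusted p 8.4e-05). Libraries within each hour were close. Nampt, the rate-limiting enzyme of NAD salvage and a known clock output, was at 126, 127 and 99.8 CPM at ZT8 and 192, 192 and 199.5 CPM at ZT12 (log2 change 0.73 ± 0.10, adjusted p 0.0057), with no overlap. Sirt1, an NAD-dependent deacetylase, was at 12.8, 11.7 and 10.03 CPM at ZT8 and 17.8, 17.8 and 18.1 CPM at ZT12 (log2 change 0.63, adjusted p 0.011), with the ZT12 libraries level and above ZT8. Sirt7, a nucleolar relative, fell (log2 change -0.43, adjusted p 0.027), and the call held in 2 of the 6 fits that left out 1 library, those without ZT8 replicate 2 and ZT12 replicate 2, with adjusted p up to 0.11 in the others. Nmnat3 fell too (log2 change -1.06, adjusted p 0.016), and the call was lost without ZT8 replicates 1 and 3, with adjusted p up to 0.07. In iron and metal handling 3 of 23 tested genes rose and 2 fell (21.7%), and the number called was 2, 3 and 2 without ZT8 replicates 1, 2 and 3, and 5, 5 and 2 without ZT12 replicates 1, 2 and 3. Tfrc, the transferrin receptor, was at 17.9, 20 and 12.8 CPM at ZT8 and 64.8, 68.3 and 93.2 CPM at ZT12 (log2 change 2.16 ± 0.20, adjusted p 0.0021), every ZT12 library far above ZT8. Hfe2, hemojuvelin, was at 62.3, 62.4 and 65.2 CPM at ZT8 and 44.4, 44.1 and 38.7 CPM at ZT12 (log2 change -0.58 ± 0.08, adjusted p 0.0055). It was low in all ZT12 libraries. Aco1, an iron-responsive RNA-binding aconitase, and Ireb2, its relative, had log2 changes of 0.23 (adjusted p 0.048) and -0.39 (adjusted p 0.037). For Aco1, the call was lost in each of the 6 fits that left out 1 library, with adjusted p up to 0.14. For Ireb2, the call held in 1 of the 6 fits that left out 1 library, that without ZT12 replicate 1, with adjusted p up to 0.12 in the others. Fosl2, a partner of JUN in AP-1, was at 6.92, 5.89 and 5.54 CPM at ZT8 and 19.6, 19.4 and 21.5 CPM at ZT12 (log2 change 1.72 ± 0.12, adjusted p 7.5e-04), and Zfp36l1, which destabilises mRNAs, had a log2 change of 0.84 (adjusted p 0.0051). Fosl2 was high in every ZT12 library. These are on the list of 22 tested immediate early and Id genes, of which Nr4a1 also rose and Klf10 fell (18.2%), and the number called was 2, 3 and 3 without ZT8 replicates 1, 2 and 3, and 3, 2 and 3 without ZT12 replicates 1, 2 and 3.

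Large changes were also found in genes of varied function. Rgs16, a brake on G protein signaling that is rhythmic in liver, was at 189.5, 127 and 193 CPM at ZT8 and 33.1, 23.5 and 22.3 CPM at ZT12 (log2 change -2.69 ± 0.21, adjusted p 0.0016). Its ZT12 libraries were all low. Fabp5, a fatty acid carrier, was at 39.7, 32.1 and 31.9 CPM at ZT8 and 13.1, 8.98 and 9.49 CPM at ZT12 (log2 change -1.72, adjusted p 0.0021), Car14, a carbonic anhydrase, at 27.9, 26.5 and 31.6 CPM at ZT8 and 10.3, 6.51 and 9.13 CPM at ZT12 (log2 change -1.73, adjusted p 0.0021), and Prss8, a membrane serine protease, at 25.2, 19.1 and 24.2 CPM at ZT8 and 7.74, 6.74 and 7.47 CPM at ZT12 (log2 change -1.64, adjusted p 0.0016). In each of them the groups were well apart. Nav2, a neuron navigator gene, was at 71.6, 91.6 and 101 CPM at ZT8 and 29.9, 27.1 and 27.3 CPM at ZT12 (log2 change -1.64, adjusted p 0.0016), low in all ZT12 libraries. Among genes that rose, Sept11, a septin of the cytoskeleton, was at 5.30, 6.10 and 6.71 CPM at ZT8 and 28.1, 29.1 and 24.8 CPM at ZT12 (log2 change 2.18 ± 0.12, adjusted p 3.9e-04), and Bud13, a splicing factor, at 5.06, 5.25 and 5.95 CPM at ZT8 and 15.6, 18.6 and 17.8 CPM at ZT12 (log2 change 1.68 ± 0.12, adjusted p 9.8e-04). Both were high in every ZT12 library. Rbm12b1, an RNA-binding protein, was at 5.01, 4.30 and 3.15 CPM at ZT8 and 16.2, 23.8 and 20.9 CPM at ZT12 (log2 change 2.28, adjusted p 0.0021), and Sftpa1, known as a surfactant protein of lung, at 3.44, 2.02 and 1.46 CPM at ZT8 and 10.7, 13.0 and 11.5 CPM at ZT12 (log2 change 2.33, adjusted p 0.0038). The groups did not overlap in either. Pdgfrl, a receptor-like protein, was at 0.239, 0.159 and 0.350 CPM at ZT8 and 2.95, 2.81 and 9.43 CPM at ZT12 (log2 change 4.32, adjusted p 0.0071). ZT12 replicate 3 was the highest library, and without it the log2 change was 3.50. Nr4a1, an orphan nuclear receptor that cAMP induces, was at 2.10, 1.22 and 0 CPM at ZT8 and 7.28, 10 and 16.97 CPM at ZT12 (log2 change 3.32, adjusted p 0.029), high at ZT12 but with the value moving to 4.18 without ZT8 replicate 1, and the call held in 2 of the 6 fits that left out 1 library, those without ZT8 replicate 3 and ZT12 replicate 1, with adjusted p up to 0.1 in the others. Cast, the calpain inhibitor calpastatin, was at 16.8, 3.93 and 8.28 CPM at ZT8 and 1.502, 0 and 0 CPM at ZT12 (log2 change -4.25, adjusted p 0.038). It was at 0 in ZT12 replicates 2 and 3, and the call held in 1 of the 6 fits that left out 1 library, that without ZT12 replicate 1, with adjusted p up to 0.14 in the others. Its log2 change was -3.58 without ZT8 replicate 1 and -3.65 without ZT12 replicate 2. Without ZT12 replicate 1 the ZT12 group was at 0, so no fitted fold is given.

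The lists on oxidative phosphorylation, ribosomal proteins and autophagy held few called genes, beside 13.7% called among all genes. Of 61 tested genes of oxidative phosphorylation edgeR called 0, with 3 at an unadjusted p under 0.05, and DESeq2 called 1. Their median log2 change was 0.06 (0.02 to 0.11 without 1 library). Of 76 cytosolic ribosomal protein genes 3 were called (3.95%), and of 47 genes of autophagy and lysosomes 3 (6.38%), each with a median log2 change of 0.06. Without 1 library the median ran from -0.00 to 0.10 for ribosomal proteins and from 0.01 to 0.08 for autophagy. In autophagy the called genes were 1 higher and 2 lower, beside 3 and 1 with DESeq2 and 5 and 0 in the fit of all 36 CR libraries. Calls for ribosomal proteins numbered 0, 1 and 0 without ZT8 replicates 1, 2 and 3, and 0, 2 and 1 without ZT12 replicates 1, 2 and 3. Calls for autophagy numbered 1 without ZT8 replicate 2 or ZT12 replicate 2 and 0 without each other library. In ribosome biogenesis the share called was near that of all genes: 3 of 59 rose and 4 fell (11.9%), with 12 called in the fit of all 36 CR libraries and counts of 1, 1 and 1 without ZT8 replicates 1, 2 and 3, and 3, 5 and 2 without ZT12 replicates 1, 2 and 3. The helicase Ddx56 was at 28.6, 29.7 and 28.8 CPM at ZT8 and 18.7, 21.4 and 19.2 CPM at ZT12 (log2 change -0.56, adjusted p 0.0075), lower in every ZT12 library.

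Of 43 tested genes of amino acid breakdown and the urea cycle 8 rose and 3 fell (25.6% called, against 13.7% among all genes), with a median log2 change of 0.15 (0.06 without ZT8 replicate 2 and 0.07 without ZT12 replicate 2) and counts of 3, 3 and 4 without ZT8 replicates 1, 2 and 3, and 8, 9 and 6 without ZT12 replicates 1, 2 and 3. Tat is among them, and Bhmt, which remethylates homocysteine, fell (log2 change -1.42, adjusted p 0.015), and the call was lost without ZT8 replicates 1 and 3 and ZT12 replicate 3, with adjusted p up to 0.065. Of 37 acute phase genes 8 rose and 1 fell (24.3%), with a median log2 change of 0.05 (0.03 to 0.13 without 1 library) and counts of 3, 5 and 5 without ZT8 replicates 1, 2 and 3, and 6, 9 and 4 without ZT12 replicates 1, 2 and 3. Il6ra, the receptor of interleukin 6, was at 10.4, 10.5 and 11.4 CPM at ZT8 and 17.6, 18.5 and 22.9 CPM at ZT12 (log2 change 0.87, adjusted p 0.0057), and Crp rose by a log2 change of 0.49 (adjusted p 0.0051). Every ZT12 library of Il6ra was above ZT8.

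**Figure D3:**
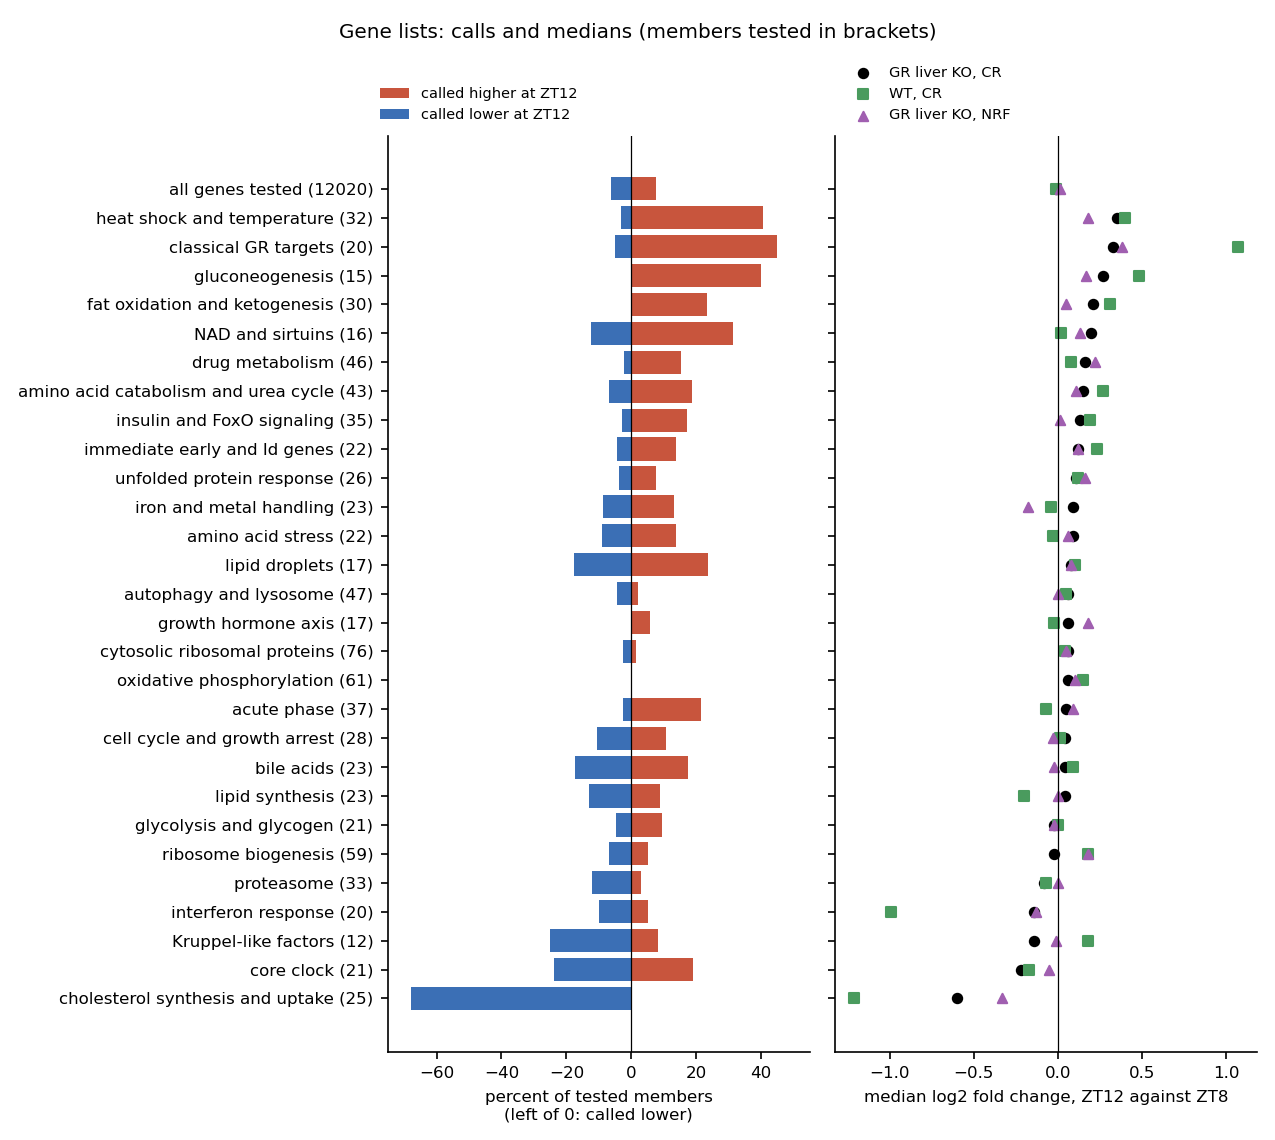
Left, percent of tested members called higher or lower at ZT12 in each of the 28 gene lists, and right, each list's median log2 change from ZT8 to ZT12 in GRLKO livers on CR, WT livers on CR and GRLKO livers on NRF. The cholesterol list has the lowest GRLKO median on CR, -0.60, and medians of -1.21 in WT livers and -0.33 on NRF.

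Whether the evening change differs without GR was tested as the genotype by time interaction, the log2 change in GRLKO minus that in WT livers on CR. It was called for 104 of 12393 genes (0.839%), 55 positive and 49 negative, 36 of which were also called in the comparison of ZT12 with ZT8 in GRLKO livers, and 1821 genes had an unadjusted p under 0.05. DESeq2 called 459. Without a library the count was 58, 146 and 69 (WT at ZT8, replicates 1, 2 and 3), 120, 64 and 48 (WT at ZT12), 42, 39 and 34 (GRLKO at ZT8) and 52, 97 and 55 (GRLKO at ZT12), with 28 positive and 24 negative without GRLKO ZT12 replicate 1. The median over the classical GR targets was 0.33 in GRLKO and 1.07 in WT livers, beside -0.01 over all genes in each, and 3 of its 20 tested members were called in the interaction. Without 1 WT library the WT median ran from 0.86 to 1.38, the latter without ZT8 replicate 2. That library stood apart from the other WT libraries of its hour, with a chi-square per degree of freedom of 65.6 and 63.3 against replicates 1 and 3 and 22.1 between these. Lcn2, an acute phase gene, was at 4.66, 168 and 2.24 CPM in WT replicates 1, 2 and 3 at ZT8, and Mt1, a metallothionein, at 14.7, 113 and 19.8 CPM. Cdkn1a, the cell cycle inhibitor p21, was called in the interaction: with the 12 libraries scaled together it was at 0.767, 1.16 and 0.885 CPM at ZT8 and 36.98, 19.3 and 26.6 CPM at ZT12 in WT, and at 0.875, 0.922 and 1.125 and 1.78, 2.005 and 2.19 CPM in GRLKO livers (interaction -3.84 ± 0.37, adjusted p 0.0024). The 3 WT libraries at ZT12 stood far above all the others. For Tsc22d3 the log2 change was 2.05 ± 0.11 in WT (interaction -0.89 ± 0.15, adjusted p 0.028), and the call held in 3 of the 12 fits that left out 1 library, those without WT ZT8 replicate 2, WT ZT12 replicate 1 and GRLKO ZT12 replicate 2, with adjusted p up to 0.1 in the others. For Klf9 it was 0.29 ± 0.11 in WT, against the fall in GRLKO (interaction -0.81 ± 0.16, adjusted p 0.042), but the call was lost in each of the 12 fits that left out 1 library, with adjusted p up to 0.12. Tat and Pck1 had interactions of -0.62 ± 0.34 and 0.87 ± 0.35 that did not pass (adjusted p 0.43 and 0.29). For both, WT ZT8 replicate 2, the library that stood apart, was the highest of its group. WT replicates 1, 2 and 3 at ZT8 were at 1103.1, 2156.5 and 1153.4 CPM for Tat and 2467.4, 4632.3 and 2427.3 CPM for Pck1.

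Acox2 fell in GRLKO livers, whereas WT libraries were at 116, 134 and 125 CPM at ZT8 and 148, 135 and 137 CPM at ZT12 (interaction -1.43 ± 0.13, adjusted p 0.0019). The WT libraries of ZT12 lay just above those of ZT8. Pfkfb1 had a log2 change of 0.84 ± 0.13 in WT, opposite to GRLKO (interaction -1.26 ± 0.18, adjusted p 0.011). Ciart was at 50.2, 45.2 and 43.4 CPM at ZT8 and 26.0, 30.3 and 36.99 CPM at ZT12 in WT livers, a smaller change than in GRLKO (interaction -1.32 ± 0.19, adjusted p 0.011). At ZT12 all WT libraries were above all GRLKO libraries. Sept11 was at 5.75, 6.04 and 3.85 CPM at ZT8 and 5.47, 6.67 and 6.44 CPM at ZT12 in WT (interaction 1.93 ± 0.23, adjusted p 0.0066). Of the 12 libraries the 3 from GRLKO at ZT12 were the highest. Bud13 was higher at ZT12 in both genotypes, with WT libraries at 4.27, 4.84 and 4.95 CPM at ZT8 and 56.7, 74.8 and 51.1 CPM at ZT12, and more so in WT (interaction -2.02 ± 0.21, adjusted p 0.0024). Apol9a, an apolipoprotein L gene, was at 67.5, 63.2 and 69.4 CPM at ZT8 and 24.3, 24.4 and 14.24 CPM at ZT12 in WT and at 51.4, 43.3 and 40.2 CPM at ZT8 and 59.8, 53.1 and 76.3 CPM at ZT12 in GRLKO livers, where its change did not pass (adjusted p 0.07). The interaction was 2.16 ± 0.27 (adjusted p 0.0082). In cholesterol synthesis and uptake 5 of 25 genes were called in the interaction, against 0.839% of all genes, each with the lower log2 change in WT. Interactions for Lss (1.09 ± 0.14, adjusted p 0.0083) and Sc5d (1.49 ± 0.22, adjusted p 0.013) held in all 12 fits that left out 1 library, like those of the other genes of this paragraph except Fdft1 and Hsd17b7. For Fdft1 (interaction 1.06 ± 0.21, adjusted p 0.044), the call held in 3 of the 12 fits that left out 1 library, those without WT ZT8 replicate 2, WT ZT12 replicate 1 and GRLKO ZT12 replicate 2, with adjusted p up to 0.12 in the others. For Hsd17b7 (interaction 0.67 ± 0.13, adjusted p 0.046), the call held in 2 of the 12 fits that left out 1 library, those without WT ZT8 replicate 2 and GRLKO ZT12 replicate 2, with adjusted p up to 0.12 in the others.

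Whether the change depends on the diet was tested as the log2 change in GRLKO livers on CR minus that on NRF. This interaction was called for 684 of 12408 genes (5.51%), 366 positive and 318 negative, and 416 of them were also called between ZT12 and ZT8 on CR. The diets were deposited as separate tables with different library sizes, so diet and library set cannot be told apart, whereas ZT8 and ZT12 are both in each table. Leaving out 1 library gave 279, 474 and 275 calls for CR ZT8 replicates 1, 2 and 3, 456, 812 and 244 for CR ZT12 replicates 1, 2 and 3, 389, 437, 737 and 535 for NRF ZT8 replicates 1, 2, 3 and 4, and 529, 529, 628 and 666 for NRF ZT12 replicates 1, 2, 3 and 4. Without CR ZT12 replicate 1, 256 were positive and 200 negative. Igfbp1 on NRF was at 9.20, 11.4, 13.4 and 8.39 CPM at ZT8 and 5.90, 0.932, 2.49 and 3.60 CPM at ZT12, the reverse of its course on CR (interaction 3.75 ± 0.59, adjusted p 0.005). Every NRF library at ZT12 was below every NRF library at ZT8. Pdk4 on NRF was at 6.35, 4.85, 5.95 and 2.54 CPM at ZT8 and 3.18, 2.24, 8.02 and 2.86 CPM at ZT12 (interaction 3.42 ± 0.59, adjusted p 0.007). These groups overlapped. G6pc on NRF was at 155, 169, 274 and 187 CPM at ZT8 and 344, 204, 208 and 152 CPM at ZT12 (interaction 3.33 ± 0.63, adjusted p 0.011). Here too the NRF groups overlapped, and without CR ZT8 replicate 1 the interaction was 4.34. Dbp on NRF was at 87.3, 85.0, 82.1 and 85.3 CPM at ZT8 and 119, 117, 97.2 and 74.7 CPM at ZT12 (interaction -1.69 ± 0.21, adjusted p 0.0012), and Ciart at 10.6, 10.4, 10.5 and 11.9 and 21.5, 20.6, 18.7 and 20.1 CPM (interaction -2.79 ± 0.14, adjusted p 2.7e-07). Ciart was higher at ZT12 in every NRF library, opposite to CR. For Nfil3 the log2 change on NRF was 0.51 ± 0.18 (interaction 2.10 ± 0.27, adjusted p 0.0015). For the genes of this paragraph the interaction held in all 14 fits that left out 1 library.

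Positive interactions with diet, meaning a log2 change more positive on CR than on NRF, were also called for Btg1 (1.26 ± 0.18, adjusted p 0.0026), Ccng2 (1.36 ± 0.18, adjusted p 0.0019), Fosl2 (1.19 ± 0.21, adjusted p 0.0079), Nfe2l1 (0.82 ± 0.13, adjusted p 0.005) and Sept11 (2.29 ± 0.22, adjusted p 3.2e-04). Negative interactions were called for Per3 (-1.23 ± 0.21, adjusted p 0.0066), Srebf1 (-1.23 ± 0.23, adjusted p 0.011), Gadd45a (-1.49 ± 0.30, adjusted p 0.015) and Xbp1 (-1.10 ± 0.19, adjusted p 0.007). All of these held in the 14 fits as well. Ccng2 had a log2 change of opposite sign on NRF (-0.44 ± 0.12), as did Per3 (0.42 ± 0.14), Srebf1 (0.33 ± 0.15) and Xbp1 (0.36 ± 0.12). On NRF the log2 change was -0.12 ± 0.12 for Btg1, -0.11 ± 0.14 for Sept11, 0.00 ± 0.08 for Nfe2l1, 0.12 ± 0.19 for Gadd45a and 0.53 ± 0.14 for Fosl2. Among heat shock genes 7 of 32 were called in the interaction with diet, against 5.51% of all genes. Of these, the call of Hspa1b held in all 14 fits. Those of Hspa8, Hsp90aa1, Hspb1, Cct5 and Cirbp were lost in at least 1. Hspa1b on NRF was at 12.3, 10.9, 13.3 and 6.21 CPM at ZT8 and 17.8, 20.6, 14.8 and 17.8 CPM at ZT12 (interaction 2.42 ± 0.48, adjusted p 0.013). The NRF libraries of ZT12 were all above those of ZT8. For Hspa8 (interaction 0.91 ± 0.19, adjusted p 0.017), the call was lost without CR ZT8 replicate 3, with adjusted p up to 0.054. For Irs2 (interaction 1.47 ± 0.38, adjusted p 0.043), the call held in 3 of the 14 fits that left out 1 library, those without NRF ZT8 replicate 4, NRF ZT12 replicate 1 and CR ZT12 replicate 2, with adjusted p up to 0.11 in the others. Nr1d1, Tat and Pck1 had log2 changes of the same sign on both diets, on NRF -1.62 ± 0.15, 1.11 ± 0.17 and 1.39 ± 0.21 and interactions that did not pass (adjusted p 0.53, 0.43 and 0.26).

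**Figure D4:**
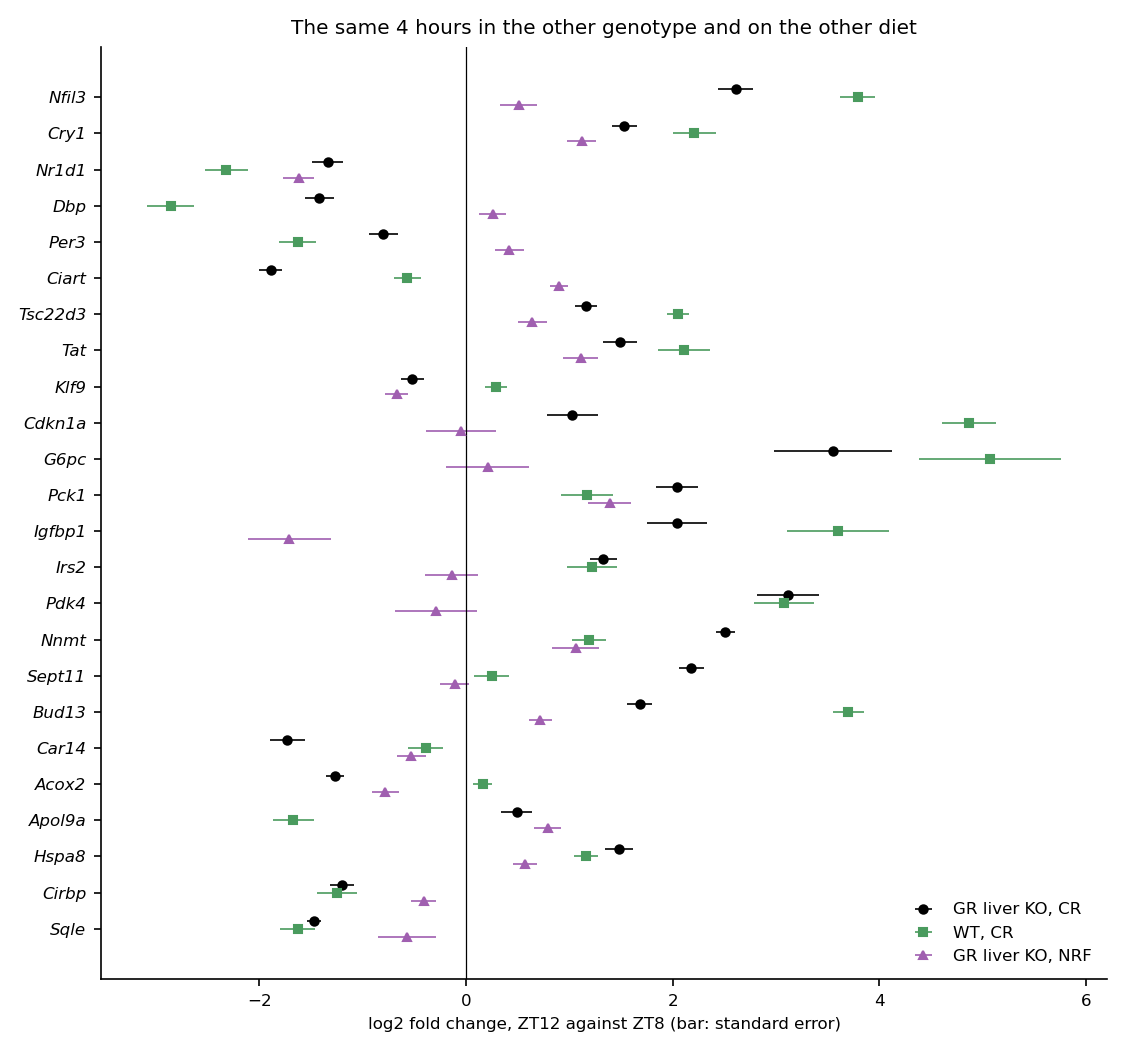
Log2 change from ZT8 to ZT12 (points, error bars are SE) of 24 genes in GRLKO livers on CR, WT livers on CR and GRLKO livers on NRF. Acox2 lies at -1.27 in GRLKO livers on CR and at 0.16 in WT livers, and Igfbp1 at 2.04 on CR and -1.71 on NRF in GRLKO livers.

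Called genes were also looked at for short motifs in their promoters, taken from RefSeq on build GRCm38.p6 (the assembly the labels call mm10) as 300 bases, 250 before to 50 after each transcription start, and searched on both strands. The E-box CACGTG, the sequence BMAL1 and CLOCK bind, was in 8.09% of the promoters of 27025 genes and in 11.7% of those of 9319 tested genes, and in 9.99% of promoters of genes that rose (691 had a promoter in the table) and 15.3% of those of genes that fell (562). The D-box, as TTATGTAA or TTACGTAA, was in 1.23%, 0.923%, 1.74% and 0.712% of the same sets, the cAMP element TGACGTCA in 2.03%, 3.44%, 4.78% and 2.31%, and the heat shock core GAANNTTC in 9.04%, 7.06%, 8.83% and 8.01%. AGAACA, the core hexamer of glucocorticoid elements, was in 21.3%, 15.1%, 12.2% and 13.7%. These shares describe letters in a window and carry no test. The promoters printed here belong to a pair of clock repressors that fell and hold E-boxes, and to a pair of chaperones that rose and hold the heat shock core, each on the minus strand, 5′ to 3′, with that motif in capitals. They span chr3:95882179-95882478 (Ciart), chr6:145865371-145865670 (Bhlhe41), chr5:149636287-149636586 (Hsph1) and chr17:34959189-34959488 (Hspa1b).
Ciart: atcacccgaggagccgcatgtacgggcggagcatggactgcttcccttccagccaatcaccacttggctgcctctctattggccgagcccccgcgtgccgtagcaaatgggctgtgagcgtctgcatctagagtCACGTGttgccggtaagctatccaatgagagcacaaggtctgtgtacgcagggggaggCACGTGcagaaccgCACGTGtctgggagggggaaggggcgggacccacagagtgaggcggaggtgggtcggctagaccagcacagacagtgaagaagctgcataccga
Bhlhe41: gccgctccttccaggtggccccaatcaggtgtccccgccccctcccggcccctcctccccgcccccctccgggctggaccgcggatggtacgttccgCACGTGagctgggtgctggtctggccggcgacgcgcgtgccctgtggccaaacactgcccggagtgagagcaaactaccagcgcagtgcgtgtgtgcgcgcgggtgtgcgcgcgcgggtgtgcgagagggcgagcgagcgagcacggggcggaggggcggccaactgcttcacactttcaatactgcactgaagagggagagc
Hsph1: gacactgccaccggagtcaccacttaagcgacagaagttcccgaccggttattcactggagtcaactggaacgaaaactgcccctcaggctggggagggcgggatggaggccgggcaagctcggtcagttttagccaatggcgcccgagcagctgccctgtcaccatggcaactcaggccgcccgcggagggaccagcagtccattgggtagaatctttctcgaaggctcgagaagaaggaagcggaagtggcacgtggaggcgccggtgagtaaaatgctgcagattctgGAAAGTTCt
Hspa1b: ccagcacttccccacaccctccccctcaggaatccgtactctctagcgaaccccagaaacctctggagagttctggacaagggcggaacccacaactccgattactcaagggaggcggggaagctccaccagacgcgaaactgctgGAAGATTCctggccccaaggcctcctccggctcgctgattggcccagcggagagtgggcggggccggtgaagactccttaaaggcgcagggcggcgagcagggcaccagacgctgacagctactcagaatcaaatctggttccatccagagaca

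The Ciart window held 3 E-boxes and the Bhlhe41 window 1, and the Hsph1 and Hspa1b windows held 1 heat shock core each. The core printed for Hsph1 began at base 292 of the 300, after the transcription start. The Hsph1 window also held 1 E-box, left in small letters, and the window of Cry1, which rose, held 1. The windows of Nr1d1, Dbp, Per3 and Dnajb1 held none of the motif of their group, which says only that these letters are not in this stretch. Those of Dnajb4 and Cct5, which also rose, held no heat shock core either, whereas that of Hspb1 held 2. Hspa8 and Hsp90aa1 had no window to search.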

How the data were processed

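Liver RNA was profiled by polyA sequencing, and the deposited values are estimated counts per gene that the authors made with Salmon (version 1.8.0 in the study's methods, after FastQC 0.11.9 and MultiQC 1.12) on mm10, with transcripts summed to genes by tximport and no normalization; the transcript annotation is not stated. The tables on CR and NRF hold 78 libraries, all of which were mapped to their labels. The other tables of the series were not used. The 12 libraries outside these tables are all labelled ZT12, 3 of them from WT livers on CR, and none is labelled ZT8. Of 27654 gene IDs, 27244 matched a symbol, and the 410 without a symbol held 0.108% of counts in the 6 libraries.

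Counts were rounded to whole numbers. The edgeR quasi-likelihood test (edgeR 4.0.16, limma 3.58.1, R 4.3.3) compared ZT12 with ZT8 on the 6 libraries alone after TMM scaling and filterByExpr with a minimum count of 10, with Benjamini-Hochberg adjustment over all genes tested and a threshold of 0.05. The genotype by time fit used 12 libraries and the diet by time fit 14, each with both main effects. Depth ran from 16526918 to 20293389 counts in the 6 libraries, where 3 counts were 0.143 to 0.184 CPM after TMM scaling. The fits were first run on simulated counts with known changes. Between replicates of the ZT8 and ZT12 groups the chi-square per degree of freedom was 11.2 to 28 over 6 pairs, and over the 24 pairs of all groups used 10.4 to 65.6, highest between WT replicates 1 and 2 at ZT8 on CR, and 0 pairs were identical. Promoters were windows around RefSeq starts. Alternatives were DESeq2 1.42.0, RLE size factors, no filter beyond 1 count, the replicate number as a block, all 36 CR libraries in a single fit and leaving out each library in turn.

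The 28 gene lists, with 883 members, and the 11 marker lists were chosen with earlier results of these data known. Lists are described by counts and medians, with no set test. The 143 genes named by rule were Nr3c1 and all members of the core clock and GR target lists (42), the 12 largest rises and 12 largest falls among called genes with at least 5 CPM in a group, groups that did not overlap and a symbol that is not a predicted model (24), up to 4 called members of each other list (78), and the 5 largest of each interaction in each direction (20), some under several of these. Not all of these are described. A further 40 genes were named after their values were seen: Hspa8, Hsp90aa1, Hmgcs1, Idi1, Fdft1, Lss, Sc5d, Hsd17b7, Ppargc1a, Fbp1, Angptl4, Cpt1a, Irs1, Foxo1, Ccng2, Sirt1, Spp1, Dnajb1, Dnajb4, Cct5, Hspb1, Sik1, Zfp36l1, Apoa1, Clec4g, Cd5l, Csf1r, Pdgfrb, Msmo1, Nsdhl, Fdps, Cyp51, Stard4, Srebf2, Psmd1, Psmd3, Acacb, Aco1, Crp and Fitm2. Members of the Mup, Acot, Hspa1, Hba, Cyp2a, Cyp2b and Saa families are near-identical copies, and the split of counts among them is uncertain.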

Additional observations from a re-analysis of the deposited data

Results flagged for a closer look

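The change from ZT8 to ZT12 on CR differed between GRLKO and WT livers for 104 genes, called by the edgeR quasi-likelihood test of the interaction with Benjamini-Hochberg adjustment, and 23 of them are named here. The log2 interaction, the change in GRLKO minus that in WT, was negative at -1.32 for Ciart, -1.17 for Nfil3, -0.89 for Tsc22d3, -0.81 for Klf9, -3.84 for Cdkn1a, -1.33 for Car14, -1.26 for Pfkfb1, -1.43 for Acox2, -1.14 for Fmo5, -2.21 for Slc45a3, -2.02 for Bud13 and -1.94 for Tcim. It was positive at 1.32 for Nnmt, 2.16 for Apol9a, 1.93 for Cebpe, 1.93 for Sept11, 1.06 for Fdft1, 1.09 for Lss, 1.49 for Sc5d and 0.67 for Hsd17b7. Hsph1 (adjusted p 0.014), Bcar1 (adjusted p 0.047) and Tra2a (adjusted p 0.009) each had a group that averaged 3 counts or fewer per library, the floor, so no fitted fold is given for them. Bcar1 and Tra2a were at 0 counts in 4 and 6 of the 36 CR libraries. The calls of Ciart, Cdkn1a, Pfkfb1, Acox2, Apol9a, Cebpe, Sept11, Bud13, Lss, Sc5d, Hsph1 and Tra2a held in all 12 fits that left out 1 library, and the other 11 were lost in at least 1 of them (9 without GRLKO ZT12 replicate 1), with adjusted p up to 0.13.

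Between the diets the change in GRLKO livers differed for 684 genes by the same kind of test, 55 of them named here. The log2 interaction, CR minus NRF, was -1.28 for Per1, -1.14 for Per2, -1.23 for Per3, -2.79 for Ciart, -1.87 for Bhlhe41, -1.69 for Dbp, -0.49 for Tef, 2.10 for Nfil3 and 0.36 for Csnk1d among clock genes. Among genes of fuel and iron metabolism and insulin signaling the interaction was 3.33 for G6pc, 0.49 for Fbp1, 3.42 for Pdk4, -1.23 for Srebf1, 1.47 for Angptl4, 0.44 for Fitm2, 0.49 for Abcb4, 3.75 for Igfbp1, 1.47 for Irs2, 0.56 for Foxo1, 1.36 for Ccng2, 1.45 for Nnmt, -0.82 for Nmnat3, -0.54 for Sirt7 and 0.47 for Trf. For Irs1 it was 1.123. In the protein stress lists it was 2.42 for Hspa1b, 0.91 for Hspa8, 0.78 for Hsp90aa1, 1.53 for Hspb1, 0.35 for Cct5, -0.79 for Cirbp, -1.10 for Xbp1, 1.07 for Sesn2 and 0.82 for Nfe2l1. For Ddx56, from the list on ribosome biogenesis, it was -0.62. For regulators and secreted or surface proteins of other lists it was -1.49 for Gadd45a, 1.26 for Btg1, 1.19 for Fosl2, 3.74 for Nr4a1, 0.80 for Zfp36l1, -0.70 for Klf13, -0.49 for Ifih1, 0.43 for Crp and 0.74 for Clec4g. For Mup17, of the near-identical major urinary protein genes whose counts are uncertain one by one, it was -2.62. The rest had 1.39 for Rbm12b1, -4.69 for Cast, -1.19 for Car14, 2.29 for Sept11, 1.25 for Slc45a3 and 0.95 for Bud13. Cast was at 0 counts in 4 of the 36 CR libraries, and its value was -4.02 without CR ZT8 replicate 1 and -4.10 without CR ZT12 replicate 2. Without CR ZT12 replicate 1 its CR ZT12 group was at 0, so no fitted value is given for that fit. The interaction of G6pc was 4.34 without CR ZT8 replicate 1, and that of Nr4a1 4.59 without CR ZT8 replicate 1. Arntl (adjusted p 0.044), Mup8 (adjusted p 0.012), Mup-ps12 (adjusted p 0.035) and Pdgfrl (adjusted p 0.043) each had a group that averaged no more than the floor, so no fitted fold is given, and the call of Arntl held in 4 of the 14 fits that left out 1 library. The calls of Per3, Ciart, Dbp, Tef, Nfil3, G6pc, Hspa1b, Pdk4, Car14, Srebf1, Igfbp1, Gadd45a, Xbp1, Ddx56, Nfe2l1, Btg1, Fosl2, Sirt7, Sept11, Bud13, Ccng2 and Mup8 held in all 14 fits that left out 1 library, and those of the other 33 were lost in at least 1, 13 of them without CR ZT12 replicate 1 and at most 31, without CR ZT12 replicate 3.

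Of 110 groups of 4 NRF libraries looked at, from 55 genes, 9 held a library whose gap to the nearest other took up 0.837 to 1.000 of the range of the group (Dixon's ratio). Chance flags about 1 in 20 groups. At ZT12, Arntl in replicate 3 was at 0.642 CPM beside 0 in the others. Per1 in replicate 1 was at 49.52 CPM beside 29.2 to 31.54 CPM in the others, and Sesn2 in replicate 1 at 12.73 CPM beside 7.864 to 8.567 CPM. In replicate 4 Csnk1d was at 62.28 CPM beside 58.87 to 59.21 CPM and Car14 at 23.19 CPM beside 30.09 to 31.38 CPM. Pdk4 in replicate 3 was at 8.024 CPM beside 2.237 to 3.182 CPM. At ZT8, replicate 4 had Ciart at 11.92 CPM beside 10.38 to 10.56 CPM and Nr4a1 at 2.397 CPM beside 0.8562 to 0.9527 CPM, and Foxo1 in replicate 3 was at 30.25 CPM beside 33.41 to 33.91 CPM. All these libraries were kept.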

How the results depend on the processing

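The comparison of ZT12 with ZT8 had 1650 calls. It had 1772 with DESeq2 (1462 shared), as many calls with RLE size factors (1632 shared), 1300 with no filter, 2086 in the fit of all 36 CR libraries and 512 with the replicate block. Replicate numbers were not taken to pair the libraries. The correlations of their deviations between hours were -0.052, -0.099 and -0.045 over 12020 genes, under the threshold of 0.1 set for pairing. With 3 libraries an hour, these correlations cannot show that same-numbered libraries shared no processing step. Leaving out 1 library gave 526 to 1605 calls. Genotype by time had 104 calls, as many with RLE, 88 with no filter, 459 with DESeq2, 29 with the replicate block, 271 in the fit of all 36 CR libraries and 34 to 146 without 1 library. Diet by time had 684 calls, as many with RLE, 490 with no filter, 1106 with DESeq2, 251 with the replicate block and 244 to 812 without 1 library. The cause of these shifts was not tested.

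Of the 150 named genes called, 143 kept the call with DESeq2, 149 with RLE, 131 with no filter, 96 with the replicate block, 125 with all 36 CR libraries, and 78 in all 6 fits that left out 1 library, while 12 kept it in none. No called gene changed direction in any of these. Of the genes that did not pass, 12 changed direction, with log2 changes without 1 library of -0.17 to 0.41 for Clock, -0.09 to 0.03 for Nr1d2, -0.12 to 0.05 for Csnk1e, -0.08 to 0.72 for Mt2, -0.86 to 0.33 for Lcn2, -0.10 to 0.20 for Cebpd, -0.63 to 0.06 for Lpin1, -0.01 to 0.07 for Atp5a1, -0.57 to 0.38 for Bcar1, -0.21 to 0.01 for Cebpe, -0.33 to 0.02 for Tcim and -0.14 to 0.01 for Hsd17b7. Of 56 list medians under RLE or no filter 53 moved by less than 1 SD, and with no filter the core clock median was -0.11, that of cell cycle and growth arrest 0.00 and that of NAD and sirtuins 0.12. Genes near the floor of 3 counts per library cannot show small changes at this depth, and with 3 libraries a group a gene that does not pass is not shown to be unchanged.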

Other observations

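Of 12 tested Kruppel-like factors, zinc finger regulators of which several follow the clock, 1 rose and 3 fell (33.3%, against 13.7% called among all genes), with a median log2 change of -0.14 (-0.08 without ZT12 replicate 1, -0.22 without ZT12 replicate 2 and -0.26 without ZT12 replicate 3), beside -0.01 over all genes, and the number called was 2, 4 and 1 without ZT8 replicates 1, 2 and 3, and 3, 3 and 1 without ZT12 replicates 1, 2 and 3. Klf3 rose (log2 change 0.63, adjusted p 0.016), and the call was lost without ZT12 replicate 3, with adjusted p up to 0.063. Klf10 was at 39.0, 19.8 and 37.5 CPM at ZT8 and 6.24, 8.70 and 15.9 CPM at ZT12 (log2 change -1.65, adjusted p 0.028). Every ZT12 library was below every ZT8 library, and the call held in 2 of the 6 fits that left out 1 library, those without ZT8 replicate 2 and ZT12 replicate 3, with adjusted p up to 0.1 in the others. Klf13 fell (log2 change -0.52, adjusted p 0.014), and the call was lost without ZT8 replicates 1 and 3 and ZT12 replicate 3, with adjusted p up to 0.063. The remaining member that fell was Klf9.

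Of 20 tested interferon response genes 1 rose and 2 fell (15%, against 13.7% called among all genes), with a median log2 change of -0.14 (-0.09 without ZT8 replicate 2, 0.04 without ZT12 replicate 2 and -0.38 without ZT12 replicate 3) in GRLKO and -0.99 in WT livers on CR, the difference between which was not tested. In the genotype by time interaction 0 genes of the list were called, against 0.839% of all genes. Gbp6 was not in the table. Between ZT12 and ZT8 in GRLKO livers the number called was 0, 3 and 0 without ZT8 replicates 1, 2 and 3, and 2, 4 and 2 without ZT12 replicates 1, 2 and 3. Stat2, a mediator of interferon signaling, rose (log2 change 0.45, adjusted p 0.013), and the call was lost without ZT8 replicates 1 and 3, with adjusted p up to 0.062. The RNA sensor Ifih1 fell (log2 change -0.61, adjusted p 0.012), and the call was lost without ZT8 replicates 1 and 3, with adjusted p up to 0.058. Irf1 fell as well (log2 change -0.44, adjusted p 0.025), and the call held in 2 of the 6 fits that left out 1 library, those without ZT8 replicate 2 and ZT12 replicate 2, with adjusted p up to 0.09 in the others.

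Markers of lymphocytes, adipocytes, neutrophils and exocrine pancreas were low. Summed lymphocyte markers were 7.69, 5.94 and 5.83 CPM at ZT8 and 5.08, 3.87 and 6.19 CPM at ZT12, most of it Ptprc, and adipocyte markers 6.59, 6.21 and 9.04 CPM and 7.17, 5.73 and 5.08 CPM, most of it Fabp4, with Plin1 and Lep at 0. Neutrophil markers summed to at most 1.4 CPM in a library, with Ly6g and Mpo at 0, and those of exocrine pancreas to at most 0.382 CPM, with 5 of 8 at 0. Stellate cell markers were not low: they summed to 217.5, 198.9 and 207.7 CPM at ZT8 and 228.7, 190.8 and 226.0 CPM at ZT12, with Dcn the most abundant. Among them Des was at 14.74 CPM in ZT12 replicate 1, the library with muscle transcripts, and at most 3.055 CPM in the others.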
